A study of Homo sapiens with 35 samples.

Results

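The cells described here are 440 droplet barcodes of definitive endoderm that held 3 or more UMIs (unique molecular identifiers, counted molecules) of mNeonGreen, a green fluorescent reporter, and almost no transcripts of mitosis genes. They came from 1 single-cell library of 6321 barcodes, of which they made up 6.96%, and from 18831 barcodes in the 3 single-cell libraries. A barcode was a member if it had at least 5000 UMIs, at most 10% mitochondrial UMIs, at least 3 mNeonGreen UMIs and at most 1 UMI summed over MKI67, TOP2A, PLK1, CCNB1, AURKA, TPX2, CENPA and HJURP. Of the 2650 barcodes that passed the first pair of filters, 1170 had at most 1 mitosis UMI, and these held 440 with high mNeonGreen, 392 with 1 or 2 mNeonGreen UMIs and 338 with none. The 338 mNeonGreen-zero barcodes are the comparison class. A further 689 barcodes with 3 or more mNeonGreen UMIs had 2 or more mitosis UMIs.

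The study made definitive endoderm from H1, an established human embryonic stem cell line, and measured RNA in bulk and in single cells. The single-cell endoderm library was taken at 72 h after Activin A at 100 ng/ml with the GSK3 inhibitor CHIR99021 at 3 µM on day 1 and Activin A without CHIR99021 afterwards, a treatment the labels write AA+CHIR-AA. The other single-cell libraries were primitive streak cells at 36 h of the same treatment and mesoderm cells at 72 h of STEMdiff Mesoderm Induction, with 1 library each. The bulk groups compared here were sorted definitive endoderm at 72 h made with BRD+CHIR-BRD-BRD, JNJ+CHIR-JNJ-JNJ, BRD+LoAA+CHIR-BRD+LoAA-BRD+LoAA or AA+CHIR-AA-AA, and cells at 24 h of AA+CHIR, with 2 libraries each. The titles of these 24 h libraries name no sort. The 24 h groups BRD+CHIR, JNJ+CHIR and CHIR, also with 2 libraries each, served only in the model fit of 72 h against 24 h. The labels give BRD, JNJ and LoAA by these names only, without doses. The labels do not say which promoter drives mNeonGreen, whether the reporter cells are 1 clone, or on which marker cells were sorted before counting.

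Definitive endoderm is the germ layer that gives rise to gut, liver and pancreas. In the embryo and in culture it arises from primitive streak cells under strong Nodal signalling, which Activin A mimics through the same receptors and the SMAD2 and SMAD3 transcription factors. SOX17 and FOXA2 are transcription factors that define endoderm, and Nodal signalling switches on its own secreted inhibitors LEFTY1, LEFTY2 and CER1, which limit its reach.

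The endoderm library held 35.4 M UMIs in all with a median of 2932 per barcode, and its 6321 barcodes exceed the 1000 to 5000 cells aimed at per channel. The members had a median of 10258.5 UMIs (range 5127 to 20443), against 9426.5 in mNeonGreen-zero barcodes (5005 to 29733). Mitochondrial UMIs had a median of 2.59% in members and 2.31% in mNeonGreen-zero barcodes, and ribosomal protein UMIs 40.3% and 42.2%. Barcode sequences shared between pairs of libraries numbered 50 to 56, and 0 of them was a member. The mesoderm library had 0 mNeonGreen UMIs in 6266 barcodes, which allows a share of up to 0.0479% of barcodes, and the 36 h library had 11 in 8 of 6244 barcodes, at most 2 in any. Neither library holds a member, so the comparison could be made in 1 library and has no replicate.

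**Figure D1:**
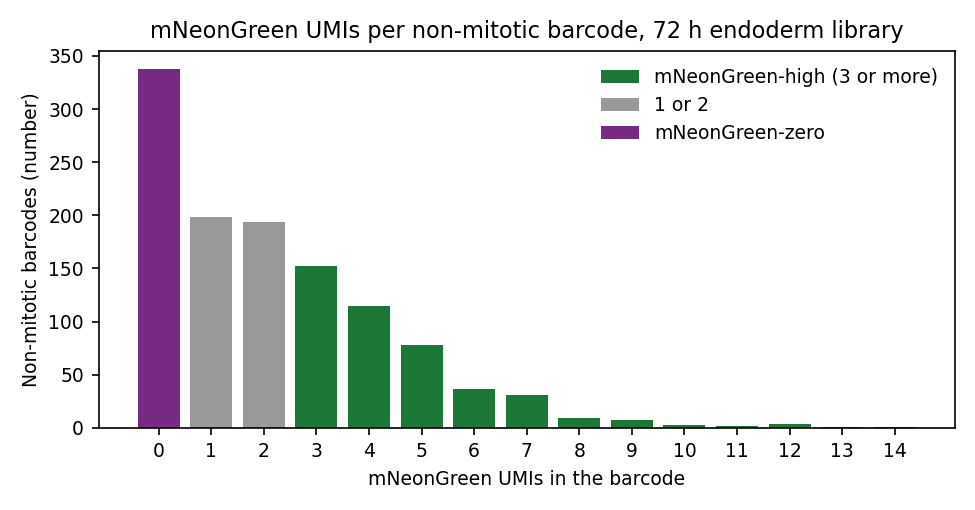
Number of non-mitotic barcodes (vertical axis) by mNeonGreen UMIs in the barcode (horizontal axis) in the 72 h endoderm library; bar colours give the 440 mNeonGreen-high, 392 intermediate and 338 mNeonGreen-zero barcodes. Counts run from 338 barcodes at 0 UMIs down to single barcodes at the maximum of 14 with no gap at the threshold of 3.

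The members were chosen on the reporter, and their mNeonGreen UMIs are a description. They held 2007 in all, with a median of 4 and a maximum of 14 per barcode, or 446 CPM (UMIs scaled to a common sequencing depth, the same for every class). Of the 440, 283 had 0 mitosis UMIs and 157 had 1. The plot of mNeonGreen UMIs per barcode shows no gap between low and high values. At the edge of the rule, the 152 barcodes with 3 mNeonGreen UMIs had 158 CPM of SOX17, 1321 of LEFTY1 and 36.8 of FOXA2, and the 194 barcodes with 2 had 159, 1141 and 40.7 CPM. The barcodes just inside and just outside the threshold thus had nearly the same SOX17 and FOXA2 levels.

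The endoderm label was checked with markers in barcodes thinned at random to 5000 UMIs each. SOX17 had a UMI in 60.9% of members (95% exact binomial interval 56.2 to 65.5%), in 20.7% of mNeonGreen-zero barcodes (16.5 to 25.4%) and in 0 of 1621 mesoderm barcodes (upper exact limit 0.227%). CER1 had a UMI in 99.5%, 95.9% and 0.123% of the same classes, and GSC, a homeobox factor of the anterior streak and endoderm, in 39.1%, 30.2% and 0.0617%. Nearly all mNeonGreen-zero barcodes thus held a CER1 UMI; the share that free RNA gives within this library was not measured. TBXT, the factor of primitive streak and mesoderm, had a UMI in 1.14% of members and 0.296% of mNeonGreen-zero barcodes, against 72.0% of mesoderm barcodes. TBX6, a mesoderm factor, had one in 3.86% and 6.80% of the endoderm classes and 33.1% of mesoderm barcodes. Intervals here and below cover counting error only, and doublets were not removed.

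Markers of other cell types were low or at 0 in the members. Of the 19 mesoderm markers, MESP1, MEOX1, HAND1, HAND2 and FOXF1 had 0 UMIs in the members, and the list summed to 58.5 CPM in members, 70.5 CPM in mNeonGreen-zero barcodes and 518 CPM in mesoderm barcodes. Of 16 genes of extraembryonic endoderm and gut products, AFP, TTR, APOB, RBP4, FGB, SERPINA1, PDX1 and CDX2 had 0 UMIs in the members. APOA2 (120.3 and 81.1 CPM) and APOE (161 and 130.4 CPM in members and mNeonGreen-zero barcodes), which encode lipoprotein components, made up most of that list. Trophoblast and amnion markers summed to 9.86 and 28.1 CPM, and blood and endothelium markers to 83.2 and 60.6 CPM, of which EGFL7 gave 78.2 and 55.8 CPM. In the neural list SOX1, PAX6, ZIC1, TFAP2A and TFAP2B were at 0 UMIs in members, while OTX2, a factor shared by anterior endoderm and forebrain, reached 381 and 281 CPM. The part of these lists in the differences below was not tested.

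To bring the classes closer in depth, each member was paired, deepest first, with the nearest unused mNeonGreen-zero barcode within 5% of its total UMIs, which gave 300 pairs and left 140 members unpaired. The paired members remained somewhat deeper, with medians of 10049.5 and 9576.5 UMIs and of 2537.5 and 2393 genes. UMIs were summed per class and scaled to CPM. Among the 2084 genes that reached 50 CPM in either class, 91 were at least 1.5-fold higher in members (4.37%) and 37 at least 1.5-fold lower (1.78%), or 128 either way (6.14%). The median log2 ratio over these genes was 0.03. At a minimum of 20 CPM, the level used for the gene lists below, 282 of 4523 genes were higher (6.23%) and 130 lower (2.87%), with a median log2 ratio of 0.05. Either class could reach the minimum, so some genes passed only through the class where they were higher. Cells of 1 library are not replicates, so no test was made, and the intervals of ratios cover counting error only.

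**Figure D2:**
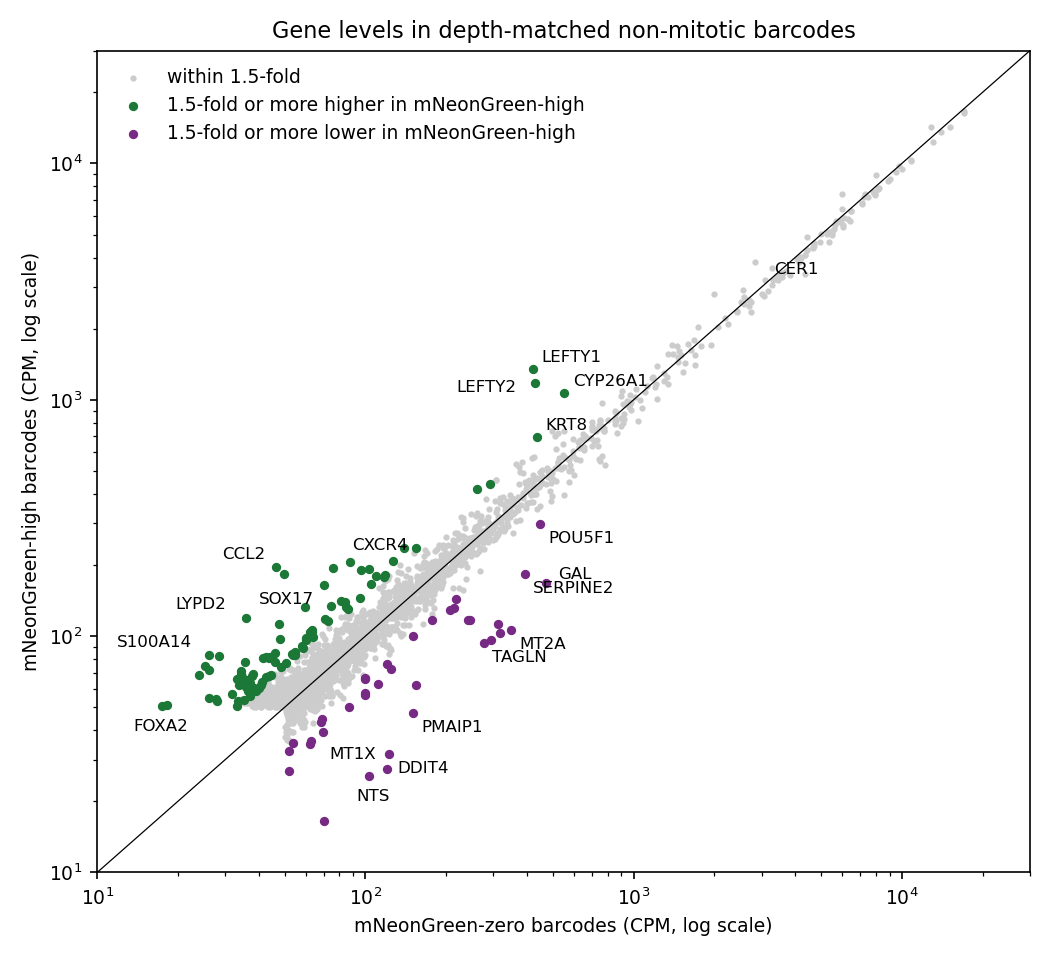
Level of each gene (points) in 300 mNeonGreen-high barcodes (vertical axis, CPM, log scale) and in 300 depth-matched mNeonGreen-zero barcodes (horizontal axis, CPM, log scale); the line marks equal levels, green points are the 91 genes at least 1.5-fold higher and purple points the 37 at least 1.5-fold lower in mNeonGreen-high barcodes. SOX17, CCL2, LEFTY1 and LEFTY2 stand above the line, metallothionein and smooth muscle genes below it, and CER1 on it.

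The secreted Nodal inhibitors LEFTY1 and LEFTY2 were higher in members, and CER1 was nearly level. LEFTY1 had a median of 11 UMIs per member (0 to 60) and 1 per mNeonGreen-zero barcode (0 to 45). Its matched level was 1353.5 CPM in members and 423 CPM in mNeonGreen-zero barcodes, a ratio of 3.20 (3.00 to 3.41). LEFTY2 had a median of 6 UMIs (0 to 87) against 1 (0 to 62), with 1173 and 430.4 CPM and a ratio of 2.73 (2.56 to 2.91). Both genes lie side by side on chromosome 1 (GRCh38 chr1:225886282-225911382 and chr1:225936598-225941489, minus strand) and are close copies, so the assignment of reads to each is uncertain. CER1, which binds Nodal and BMP outside the cell, had 3218 CPM in members and 3103 CPM in mNeonGreen-zero barcodes, a ratio of 1.04 (1.01 to 1.07).

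The rest of the Nodal list was mostly within 1.5-fold, except PMEPA1. The ligand NODAL had 207 CPM in members and 209.5 CPM in mNeonGreen-zero barcodes (ratio 0.99, 0.88 to 1.11). Its co-receptor TDGF1 had 772 and 698 CPM (1.11, 1.04 to 1.17), and FOXH1, the transcription factor that partners SMAD2, had 173 and 166 CPM (1.04, 0.92 to 1.18). PMEPA1, an intracellular inhibitor induced by TGF-beta signals, had 56.9 and 31.8 CPM (1.79, 1.38 to 2.32). SKIL, another inhibitor of SMADs, had 68.1 and 66.4 CPM, and the secreted Activin binder FST 38.1 and 44.2 CPM. GDF3, a ligand of the same family, had 1 UMI against 13 (ratio 0.074, 0.0017 to 0.49). Of the 9 list members at 20 CPM or more, LEFTY1, LEFTY2 and PMEPA1 were past 1.5-fold higher, 0 lower and 6 between, with a median log2 ratio of 0.06 beside 0.05 for all genes.

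Endoderm transcription factors differed to unequal degrees. SOX17 (GRCh38 chr8:54457935-54460888, plus strand) had a median of 2 UMIs per member (0 to 12) and 0 per mNeonGreen-zero barcode (0 to 5), and was found in 80.2% of members and 29.9% of mNeonGreen-zero barcodes before thinning. Its matched level was 182 CPM in members and 49.6 CPM in mNeonGreen-zero barcodes, a ratio of 3.68 (3.06 to 4.44). FOXA2 (GRCh38 chr20:22581005-22585455, minus strand), a pioneer factor that opens chromatin at endoderm genes, had 50.6 and 17.5 CPM (2.90, 2.10 to 4.06). PRDM1, a repressor present in early endoderm, had 68.7 and 24.0 CPM (2.87, 2.18 to 3.81).

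GATA4 had 21.4 and 9.93 CPM in members and mNeonGreen-zero barcodes (2.15, 1.37 to 3.46), and GATA6, a zinc finger factor needed for human endoderm, 179.5 and 123 CPM (1.46, 1.28 to 1.68). EOMES, the T-box factor upstream of endoderm genes, had 315 and 232 CPM (1.36), and LHX1 1087 and 907 CPM (1.20, 1.14 to 1.26). HHEX, a factor of anterior endoderm, had 61.1 and 55.8 CPM, with an interval of the ratio that includes 1 (0.88 to 1.36). The intervals of SOX17, FOXA2 and PRDM1 overlap, so their order was not resolved, and those of GATA6 and LHX1 lie below all 3 and above 1. FOXA1 had 3 and 0 UMIs in the matched classes, too few to compare.

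Among surface and secreted endoderm genes, the chemokine receptor CXCR4, commonly used to sort endoderm, had 193 CPM in members and 103 CPM in mNeonGreen-zero barcodes (1.88, 1.63 to 2.16). The small GTPase RAB17 had 134 and 74.6 CPM (1.79, 1.52 to 2.12). KIT, the receptor often sorted together with CXCR4, had 12.5 and 7.19 CPM with an interval that includes 1 (0.99 to 3.12). The growth factor FGF17 had 1611 and 1473 CPM (1.09, 1.05 to 1.14), and CD177 had 142 and 138 CPM (1.03, 0.90 to 1.19). Of the 14 members of the endoderm list of 22 at 20 CPM or more, 6 were past 1.5-fold higher, 0 lower and 8 between, with a median log2 ratio of 0.49. FOXA2 and GATA4, counted as higher, reached that minimum only in the mNeonGreen-high class. LGR5 and ST6GALNAC2 had 0 UMIs in the members.

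**Figure D3:**
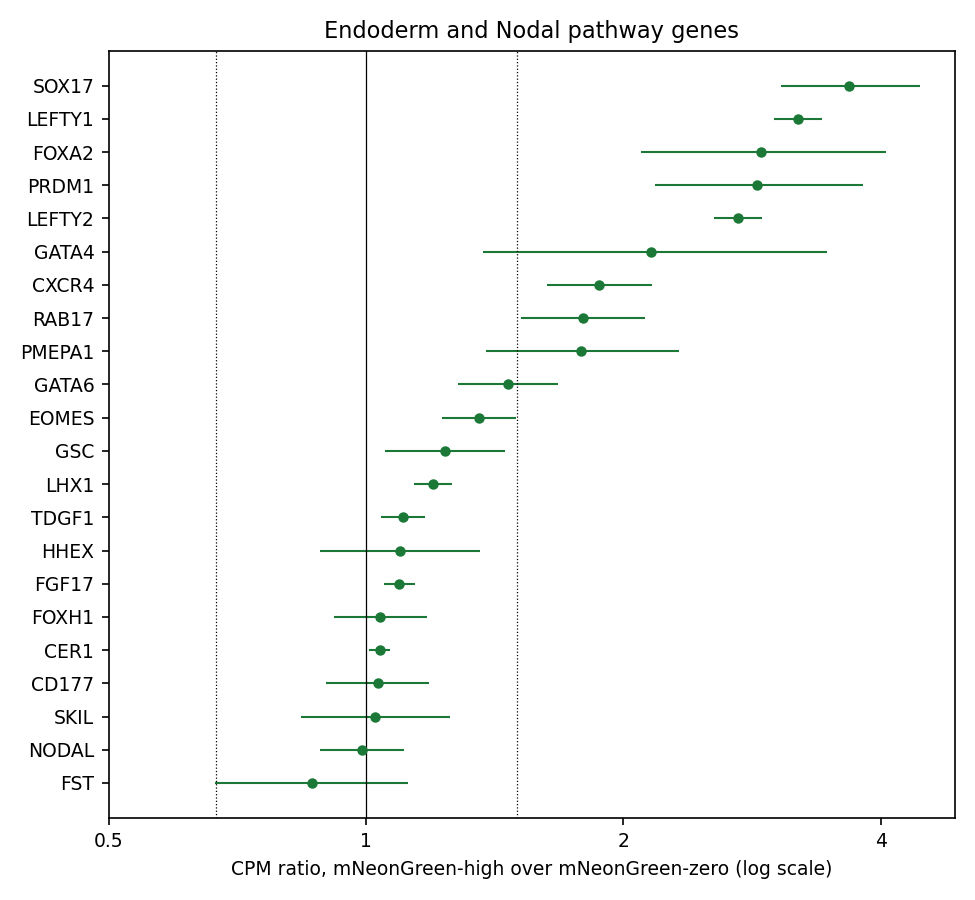
Ratio of CPM in mNeonGreen-high over mNeonGreen-zero barcodes (horizontal axis, log scale; 300 matched barcodes each) for endoderm and Nodal pathway genes at 20 CPM or more; bars are 95% intervals of counting error and dotted lines mark 1.5-fold either way. SOX17, LEFTY1, FOXA2, PRDM1 and LEFTY2 lie past 2-fold with their whole intervals, whereas CER1, NODAL, FOXH1 and CD177 lie at 1.

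Among genes at 50 CPM or more, the largest ratio was that of CCL2, a chemokine that draws monocytes (GRCh38 chr17:34255218-34257203, plus strand). It was found in 267 of 440 members (up to 19 UMIs) and 84 of 338 mNeonGreen-zero barcodes (up to 5), with 196 and 46.6 CPM and a ratio of 4.21 (3.49 to 5.11). LYPD2, a small surface protein anchored to the membrane by a lipid, had 119.7 and 35.9 CPM (3.33, 2.67 to 4.18). The calcium-binding proteins S100A14 and S100A16, whose genes neighbour each other on chromosome 1, had 83.2 and 26.0 CPM (3.20, 2.46 to 4.19) and 113 and 47.6 CPM (2.37, 1.94 to 2.91). SEMA3E, a secreted guidance cue, had 74.96 and 25.3 CPM (2.96, 2.27 to 3.90).

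The Golgi mannosidase MANEA had 51.3 and 18.15 CPM in members and mNeonGreen-zero barcodes (2.83, 2.06 to 3.94), and its divergent transcript MANEA-DT had 82.5 and 28.4 CPM (2.90, 2.26 to 3.77). COLEC12, a scavenger receptor, had 71.7 and 26.0 CPM (2.75, 2.11 to 3.63), and GLRX, which reduces protein disulfides, 165 and 69.8 CPM (2.37, 2.01 to 2.80). The Wnt receptor FZD5 had 193 and 75.7 CPM (2.56, 2.18 to 3.00). CYP26A1, the enzyme that breaks down retinoic acid, had a median of 8 UMIs per member (0 to 104) against 3 (0 to 49), and a matched level of 1071 and 552 CPM (1.94, 1.83 to 2.06).

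Some epithelial and matrix genes were higher and others were not. KRT8 had 699 CPM in members and 438 CPM in mNeonGreen-zero barcodes (1.60, 1.49 to 1.71), its filament partner KRT18 566 and 419 CPM (1.35, 1.26 to 1.46), and KRT19 559 and 612 CPM (0.91, 0.85 to 0.98). KRT8 was thus the 1 of 3 keratins past 1.5-fold, with a median log2 ratio of 0.44. Fibronectin, FN1, had 69.4 and 38.0 CPM (1.83, 1.44 to 2.32), and the basement membrane collagens COL4A1 and COL4A2 28.6 and 16.1 CPM and 36.8 and 20.5 CPM (1.78 and 1.79). The laminin chain LAMC1, below 20 CPM, had 5.92 and 12.0 CPM (0.49, 0.26 to 0.90). Another chain below 20 CPM, LAMA1, went the other way, with 14.8 and 6.16 CPM (2.40, 1.36 to 4.41). The ratio of LAMB1, also below 20 CPM, was 1.23 with an interval that includes 1 (0.76 to 2.02). Laminin chains thus had no common direction. The epithelial cadherin CDH1 had 20.1 and 24.3 CPM (0.82, 0.58 to 1.18). CDH1 and the laminin chains were chosen after their values were seen. Of 10 adhesion genes at 20 CPM or more, 3 were past 1.5-fold higher and 0 lower (median log2 ratio 0.42). COL4A1, counted as higher, reached that minimum only in the members. In cholesterol synthesis, DHCR7, the enzyme of its last step, had 34.5 and 21.9 CPM (1.58, 1.14 to 2.19). The 12 genes of that list at 20 CPM or more had a median log2 ratio of 0.53, with 0 past 1.5-fold lower. In the list of unfolded protein and stress response genes, which holds chaperones and transcription factors, PDIA4 (179.5 and 109.9 CPM, 1.63) and SDF2L1 (102 and 62.7 CPM, 1.62) were the 2 of 8 genes past 1.5-fold, with 0 lower and a median of 0.49.

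Metallothioneins made up 5 of the 15 genes with the lowest ratio. They are small cysteine-rich proteins that bind zinc and copper, and their genes lie together on chromosome 16. MT2A had 106 CPM in members and 349 CPM in mNeonGreen-zero barcodes (ratio 0.30, 0.27 to 0.34), and MT1X 27.3 and 121 CPM (0.23, 0.18 to 0.29). MT1G had 103 and 318 CPM, MT1E 96.0 and 295 CPM, and MT1H 112 and 312 CPM. The family is made of close copies, so the split of reads among its genes is uncertain, and the sum over 9 genes is given as well. Summed UMIs per barcode had a median of 2 in members (0 to 141) and 5 in mNeonGreen-zero barcodes (0 to 235). Barcodes with 10 or more numbered 54 of 440 members (12.3%, 9.36 to 15.7%) and 123 of 338 mNeonGreen-zero barcodes (36.4%, 31.3 to 41.8%).

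Among barcodes with a SOX17 UMI the metallothionein log2 ratios were smaller, at −0.57 for MT2A, −0.36 for MT1X, −0.25 for MT1G, −0.64 for MT1E and −0.29 for MT1H, and MT1E alone of the 5 stayed past 1.5-fold lower.

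The metallothionein promoters are shown because all 5 genes named above were lower in the matched comparison. The 250 bases before the gene start were read for the 3 of the 5 genes named above that the RefSeq promoter table (GRCh38.p14) holds. Capitals mark the core of the metal response element, TGCGCNC or TGCACNC on either strand, where matches of neighbouring positions may share bases.
MT2A, chr16:56608334-56608583, plus strand: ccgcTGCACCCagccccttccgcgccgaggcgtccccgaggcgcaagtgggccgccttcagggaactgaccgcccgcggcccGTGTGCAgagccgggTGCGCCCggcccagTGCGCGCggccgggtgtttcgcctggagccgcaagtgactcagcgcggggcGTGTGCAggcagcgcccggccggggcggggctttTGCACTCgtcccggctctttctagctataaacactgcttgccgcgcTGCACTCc
MT1H, chr16:56669564-56669813, plus strand: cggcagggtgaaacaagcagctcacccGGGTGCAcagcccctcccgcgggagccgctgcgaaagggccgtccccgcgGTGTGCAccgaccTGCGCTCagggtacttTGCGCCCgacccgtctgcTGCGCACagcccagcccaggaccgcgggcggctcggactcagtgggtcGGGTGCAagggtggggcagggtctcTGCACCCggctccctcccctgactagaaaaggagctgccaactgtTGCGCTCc
MT1X, chr16:56682220-56682469, plus strand: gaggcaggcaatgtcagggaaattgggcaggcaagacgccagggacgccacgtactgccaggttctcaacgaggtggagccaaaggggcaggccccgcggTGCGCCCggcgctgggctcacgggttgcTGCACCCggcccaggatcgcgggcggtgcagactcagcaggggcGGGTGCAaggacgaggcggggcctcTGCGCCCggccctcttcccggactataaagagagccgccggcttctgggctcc
MT2A holds 7 matches, MT1H 8 and MT1X 4. Of the 35116 promoters in the table, 24.8% hold at least 1 match in the same 250 bases and 0.370% hold 4 or more. A match describes these letters and not a bound site.

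Other lower genes included secreted peptides and contractile proteins. The neuropeptide precursors NTS and GAL had 25.6 CPM in members and 103 CPM in mNeonGreen-zero barcodes (0.25, 0.19 to 0.32) and 167 and 470.1 CPM (0.36, 0.32 to 0.39). GAL reached at most 14 UMIs in a member and 105 in a mNeonGreen-zero barcode. The actin-binding proteins TAGLN and CALD1 had 93.4 and 276 CPM (0.34, 0.29 to 0.39) and 62.1 and 154 CPM (0.40, 0.34 to 0.48). Among barcodes with a SOX17 UMI, the log2 ratio of TAGLN over 98 pairs was 0.031, with no lower level in members. SERPINE2, an inhibitor of thrombin and other proteases, had 182 and 392 CPM (0.47, 0.42 to 0.52).

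DDIT4, an inhibitor of mTOR signalling induced by hypoxia and stress, had 31.6 CPM in members and 122 CPM in mNeonGreen-zero barcodes (0.26, 0.20 to 0.32). PMAIP1, a trigger of apoptosis, had 47.3 and 151 CPM (0.31, 0.26 to 0.38). The lipid droplet protein HILPDA had 27.0 and 52.0 CPM (0.52, 0.39 to 0.68), and the glucose transporter SLC2A1 10.2 and 22.3 CPM (0.46, 0.29 to 0.71). The hypoxia and glycolysis list of 9 genes at 20 CPM or more had 2 lower, 0 higher and a median log2 ratio of −0.25. SLC2A1, counted as lower, reached that minimum only through the mNeonGreen-zero class. CDA, which salvages cytidine, had 117 and 242 CPM (0.48, 0.42 to 0.55), and GYPB, a glycophorin with close copies in the genome, 117 and 244.5 CPM (0.48, 0.42 to 0.55).

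Several pluripotency genes were lower, and streak genes were mixed. POU5F1 and SOX2 fall outside the naming rule and were added after their values were seen. POU5F1, which has many copies in the genome that make the assignment of its reads uncertain, had 298.5 CPM in members and 449.5 CPM in mNeonGreen-zero barcodes (0.66, 0.61 to 0.72). SOX2 had 1 UMI against 34 in the matched classes, 0.329 and 11.6 CPM (0.028, 0.00069 to 0.168). NANOG had 11.8 and 20.5 CPM (0.58, 0.37 to 0.89) and USP44, a deubiquitinase of stem cells, 14.1 and 30.8 CPM (0.46, 0.31 to 0.67). SALL4 went the other way, with 139 and 83.9 CPM (1.66, 1.42 to 1.95). Of 11 pluripotency genes at 20 CPM or more, 1 was past 1.5-fold higher and 5 lower (median log2 ratio −0.17). NANOG and USP44, counted as lower, reached that minimum only through the mNeonGreen-zero class, so the minimum favoured their direction. MIXL1, a streak factor, had 129 and 207 CPM (0.62, 0.54 to 0.70) and was the 1 of 5 streak genes past 1.5-fold lower, with 0 higher. The streak list's median log2 ratio was 0.26, in the other direction from MIXL1.

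Levels followed the mNeonGreen count in different shapes. In non-mitotic barcodes of 8000 to 12000 UMIs, SOX17 had 55.8 CPM at 0 mNeonGreen UMIs, 145 at 1 to 2, 169 at 3 to 4 and 195 at 5 to 9 (166, 240, 165 and 107 barcodes). LEFTY1 had 501 CPM, 979, 1338 and 1612 over the same bands, and FOXA2 21.0, 32.1, 43.1 and 75.7 CPM, so that both kept climbing above the threshold of 3. CER1 stayed between 2981 and 3115 CPM. MT2A had 286, 97.4, 92.8 and 94.9 CPM and PMAIP1 139.9, 45.0, 38.8 and 45.6 CPM, so nearly all of their difference lay between 0 and 1 to 2 mNeonGreen UMIs. POU5F1 likewise had 415 CPM at 0 and 286 to 305 CPM in the other bands.

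When members were set against the barcodes with 1 or 2 mNeonGreen UMIs in 377 matched pairs, 3 genes were past 1.5-fold higher and 1 lower, against 91 and 37 with the mNeonGreen-zero barcodes. The log2 ratio of MT1X was then 0.10, with the members slightly higher. SOX17 stood at 136 CPM in the intermediate barcodes over all depths. Barcodes with 1 or 2 UMIs were also close to members in the share with 10 or more metallothionein UMIs, 12.8% against 12.3%.

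**Figure D4:**
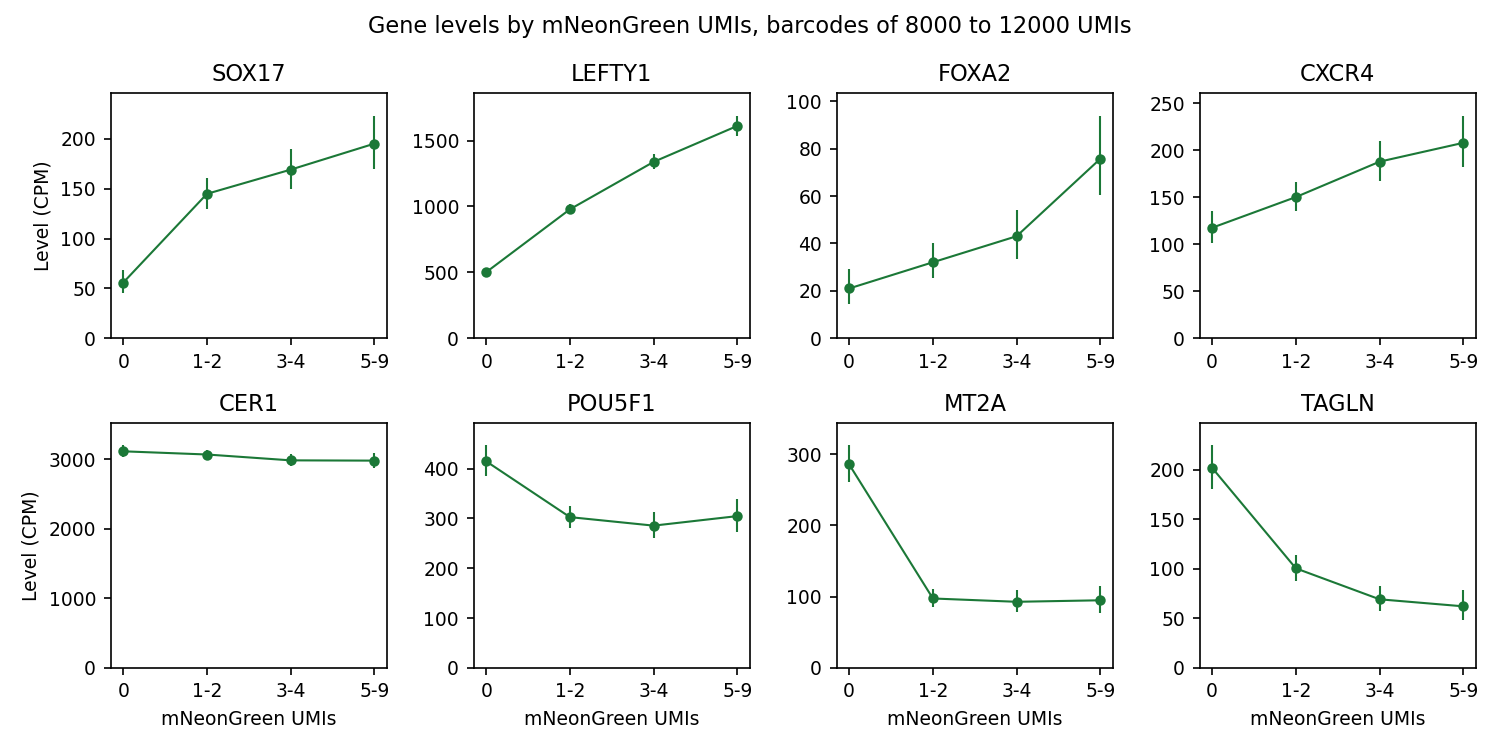
CPM (vertical axes) of 8 genes by mNeonGreen UMIs per barcode (horizontal axes) among non-mitotic barcodes of 8000 to 12000 UMIs in the 72 h endoderm library; bars are 95% exact Poisson intervals. LEFTY1 and FOXA2 climb over all bands to 1612 and 75.7 CPM, CER1 stays between 2981 and 3115 CPM, and MT2A is at 286 CPM with 0 mNeonGreen UMIs and under 100 CPM above.

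The members varied among themselves. In 440 members thinned to 5000 UMIs, the variance of a gene's UMIs over its mean had a median of 1.14 across 1012 genes. LEFTY2 stood at 8.89 (0 to 37 UMIs, median 3), CER1 at 5.90 (0 to 48, median 14), CYP26A1 at 5.35 (0 to 56, median 4) and LEFTY1 at 5.23 (0 to 30, median 5). The intermediate filament gene VIM stood at 4.82 (0 to 32) and KRT19 at 4.43 (0 to 35). The nuclear long RNA MALAT1 had the highest value, 24.4 (3 to 251 UMIs). This ratio can grow with a gene's mean, and the abundant genes TMSB4X, MT-CO1 and GAPDH stood at 5.71, 5.62 and 5.06. MALAT1, VIM and these 3 were chosen after their values were seen.

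Within members, LEFTY1 and LEFTY2 were weakly correlated across thinned barcodes (Spearman's rho 0.30), and S100A14 and S100A16 at 0.35. Before thinning, S100A16 had a UMI in 76.6% of the 111 members with S100A14 and in 34.3% of the other members. These shares were not adjusted for depth. SOX17 and mNeonGreen had a rho of 0.05, SOX17 and FOXA2 of −0.05 and CER1 and LEFTY1 of −0.003. These values are over cells of 1 library with sparse counts and describe the members only.

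The non-mitotic members were also set against 408 depth-matched mNeonGreen-high barcodes with 2 or more mitosis UMIs, a contrast the rule partly fixed. Of 2249 genes, 139 were at least 1.5-fold lower in members (6.18%) and 14 higher (0.622%). Those counts are over genes at 50 CPM or more, and the shares of all genes at 20 CPM or more were not counted in this contrast. At 20 CPM or more, all 23 mitosis genes outside the rule were past 1.5-fold lower, for example UBE2C with 57.8 CPM in members and 530.4 CPM in mitotic barcodes, and so were 6 of 10 S phase genes. The classes were split on mitosis genes, so a lower level of such genes was built in. Some of them also reached 20 CPM only through the mitotic class. UBE2C, BST2, CCND2 and ENO2 were chosen after their values were seen. S100A14 had 81.2 and 32.3 CPM (2.52, 2.06 to 3.09), BST2, an antiviral membrane tether, 281 and 130.5 CPM (2.16, 1.95 to 2.39) and the G1 cyclin CCND2 97.4 and 47.7 CPM (2.04, 1.72 to 2.43). ENO2 had 89.7 and 47.4 CPM (1.89), LYPD2 123 and 70.5 CPM (1.74) and FOXA2 51.3 and 32.0 CPM (1.60, 1.29 to 2.00).

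Most endoderm and Nodal genes were within 1.5-fold between non-mitotic and mitotic mNeonGreen-high barcodes. FOXH1 was the 1 of 9 Nodal list genes past it, with 174 and 115 CPM (1.52, 1.35 to 1.70). CD177 had 132 and 90.6 CPM (1.45, 1.27 to 1.66) and GATA4 24.6 and 34.6 CPM (0.71, 0.55 to 0.92). SOX17 had 179 and 194 CPM (0.93, 0.84 to 1.02), CER1 3088 and 2806 CPM (interval of the ratio 1.07 to 1.13), LEFTY1 1351 and 1224 CPM (1.06 to 1.15) and CXCR4 196 and 183 CPM (1.07, 0.97 to 1.18). MT2A had 92.0 and 84.2 CPM (1.09, 0.94 to 1.26). The BMP-responsive repressors of differentiation ID1 and ID2 had 26.2 and 57.4 CPM and 15.5 and 29.2 CPM (0.46 and 0.53). Of 14 endoderm genes at 20 CPM or more, FOXA2 was the 1 past 1.5-fold higher and 0 were lower, with a median log2 ratio of 0.03.

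Bulk libraries, which the rule did not use, show how the genes named above behave in whole populations. mNeonGreen has no row in the bulk table. Fewer cells of a type and less RNA per cell cannot be told apart in bulk samples, and nothing in the labels says that libraries came from separate cultures, so p-values measure the spread between these libraries. Bulk libraries had 4.57 to 7.59 M counts at 72 h and 13.0 to 29.6 M over all fitted 24 h groups, with 27.3 and 25.2 M in AA+CHIR. The titles mark the 72 h endoderm as sorted and name no sort for the fitted 24 h groups, which also carry another run of library numbers. Time, sort and library series therefore cannot be told apart.

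In endoderm at 72 h of AA+CHIR-AA-AA against cells at 24 h of AA+CHIR, 2906 of 15500 genes rose (18.7%) and 3215 fell (20.7%) in edgeR's quasi-likelihood test at an adjusted p of 0.05. Of the 15 genes with the highest single-cell ratio, 14 are in the table, and 13 rose and 0 fell, with a median log2 change of 4.42. SOX17 had 412 and 423 CPM at 72 h, against 1.74 and 0.406 CPM at 24 h (log2 change 8.57, SE 0.33, adjusted p 1.57e-11). LEFTY1 had 198 and 150.2 CPM against 7.10 and 9.67 CPM (4.38, SE 0.34), and LEFTY2 499 and 323 CPM against 1.89 and 1.14 CPM (8.07, SE 0.52). In all 3 genes the groups did not overlap, which is common with 2 libraries each, and the share over all genes was not counted.

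CXCR4 had 162 and 119.8 CPM at 72 h and 0 counts in both 24 h libraries, at least 2402-fold higher against a floor of 3 counts over the group. PRDM1 rose to 238.5 and 266 CPM against 3.55 and 5.08 CPM, FZD5 to 1658 and 1662 CPM against 86.5 and 82.6 CPM, and CCL2 to 28.8 and 27.2 CPM against 0.151 and 0 CPM. LYPD2 and S100A14 were low throughout (under 22 CPM), and their calls were lost in 4 of 9 alternatives each. FOXA2 was the gene of the 14 that did not pass the test, with 17.9 and 18.8 CPM at 72 h and 19.5 and 18.8 CPM at 24 h (log2 change −0.07, adjusted p 0.82). Of the 22 endoderm genes, 17 rose, 2 fell (GSC and EOMES) and 3 did not pass.

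Genes lower in members were mixed in the same comparison. Of 15, 13 were tested, of which 6 fell, 3 rose and 4 did not pass. NTS fell to 8.07 and 4.98 CPM at 72 h, against 170 and 161 CPM at 24 h (log2 change −4.62, SE 0.24), CALD1 to 105 and 97.4 CPM against 539.6 and 519 CPM (−2.39, SE 0.13) and GAL to 25.8 and 27.6 CPM against 158 and 137 CPM (−2.47, SE 0.17). TAGLN rose, with 251 and 186 CPM against 108 and 97.9 CPM (1.09, SE 0.18). GYPB had 17.3 and 22.2 CPM at 72 h and 0 counts at 24 h. Metallothioneins were scarce in the bulk libraries, with MT2A at 0 in both 72 h libraries and at 0.831 and 0.325 CPM at 24 h, unlike in the droplets, where it reached 106 CPM in members.

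**Figure D5:**
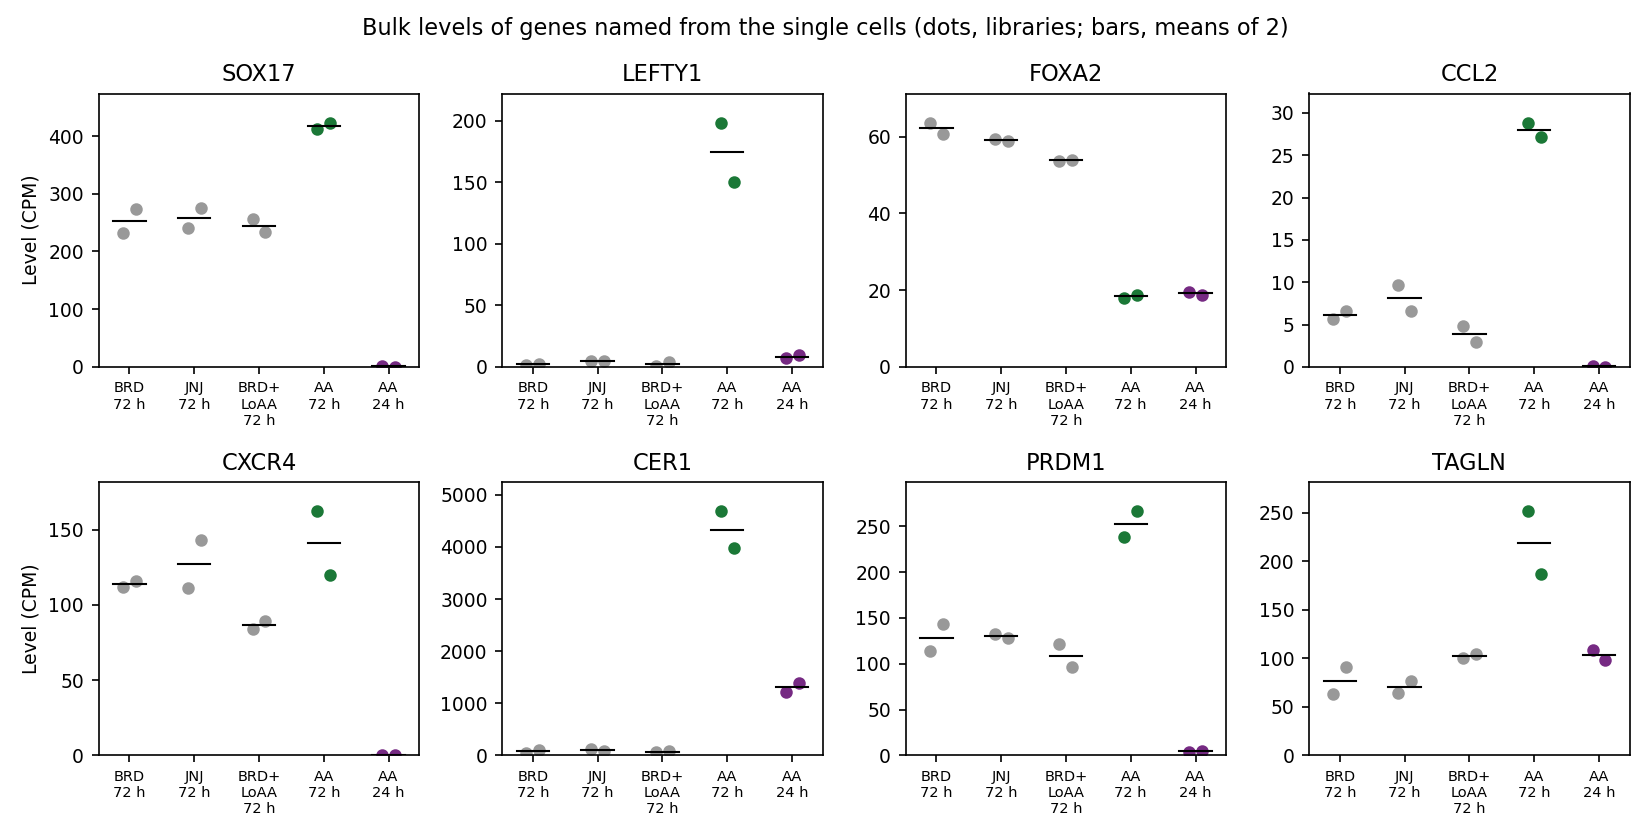
CPM (vertical axes) of 8 genes in bulk libraries (dots) and the mean of each group's 2 libraries (bars): sorted endoderm at 72 h made with BRD, JNJ, BRD with LoAA, or AA, and cells at 24 h of AA with CHIR. LEFTY1 is at 150.2 and 198 CPM in AA at 72 h and below 9.68 CPM in every other group, CER1 is at 126 CPM or less in the compound groups, FOXA2 is highest in the 3 compound groups (53.8 to 63.6 CPM), and SOX17 is at 232.5 CPM or more in all 72 h groups.

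At 72 h, endoderm made with BRD, JNJ or BRD+LoAA was compared as their mean with AA. In edgeR's quasi-likelihood test 1640 of 13889 genes rose (11.8%) and 2025 fell (14.6%). Leaving out 1 AA library gave 885 and 1051 without replicate 1, and 945 and 1199 without replicate 2, with the lone AA library assumed to vary like the others. Of the 13 tested genes with the highest single-cell ratio, 10 fell, 1 rose and 2 did not pass, with a median log2 change of −1.254. All 23 mitosis genes fell as well (median −0.94), and their part in these changes was not tested.

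LEFTY2, LEFTY1, CER1 and NODAL all fell. LEFTY2 had 0.168 and 0.389 CPM with BRD, 0.929 and 1.253 CPM with JNJ and 0.159 and 0 CPM with BRD+LoAA, against 499 and 323 CPM with AA (log2 change −10.26, SE 0.23, adjusted p 2.12e-11). LEFTY1 had 0.479 to 5.02 CPM in the 6 compound libraries against 198 and 150.2 CPM (−6.001, SE 0.24). CER1 had 53.7 to 126 CPM against 4685 and 3983 CPM (−5.72, SE 0.19), and NODAL 11.01 to 23.8 CPM against 237 and 186 CPM (−3.67, SE 0.17). Of the 13 tested genes of the Nodal list, 7 fell, 2 rose and 4 did not pass. CER1, whose single-cell ratio was 1.04, thus differed strongly between ways of making endoderm.

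Endoderm transcription factors parted here. SOX17 had 232.5 and 274 CPM with BRD, 241 and 275 CPM with JNJ and 256 and 233 CPM with BRD+LoAA, against 412 and 423 CPM with AA (log2 change −0.73, SE 0.10, adjusted p 0.000131). GATA6 and PRDM1 fell by 1.22 and 1.05 on the log2 scale. FOXA2 rose, with 63.6 and 60.8 CPM, 59.3 and 58.8 CPM and 53.8 and 53.8 CPM in the same 3 groups against 17.9 and 18.8 CPM with AA (1.67, SE 0.14, adjusted p 1.68e-06). KIT also rose (0.90, SE 0.10). CXCR4 fell by 0.39 with an adjusted p of 0.0365, a call lost in 6 of 12 alternatives (adjusted p 0.020 to 0.63). In the endoderm list 12 of 22 genes fell, 5 rose and 5 did not pass. SOX17 and FOXA2, both higher in members, thus changed in opposite directions in the bulk populations.

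Among the lower single-cell genes, PMAIP1 rose to 182 to 246 CPM in the compound groups against 100.0 and 75.7 CPM with AA (1.26, SE 0.13), and HILPDA to 43.2 to 53.9 CPM against 20.03 and 26.7 CPM (1.09, SE 0.16). TAGLN fell to 62.9 to 105 CPM against 251 and 186 CPM (−1.42, SE 0.14). GYPB had 0 counts in all 6 compound libraries, at least 248-fold lower than the mean of 19.7 CPM with AA. Of 11 tested genes of that group, 3 fell, 2 rose and 6 did not pass.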

How the data were processed

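Counts of UMIs per gene and barcode were deposited for 3 single-cell libraries, made with Cell Ranger 3.0.2 from 3' droplet libraries, per the file headers and the labels' protocols, on GRCh38. The bulk table holds expected counts per gene deposited by the authors for 30 libraries; the submitters' processing notes list Salmon 1.4.0, edgeR 3.34.0, limma 3.48.1 and Seurat 4.0.2 without roles. An aggregated matrix was not used, and 0 bulk columns were left unmapped.

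Members and gene lists were chosen with earlier results of these data known. UMIs were read and summed per class in Python 3.11.15 (scipy 1.17.1), with 95% exact Poisson, Clopper-Pearson and conditional binomial intervals. Named were the 15 highest and 15 lowest CPM ratios among genes with at least 50 CPM (without mNeonGreen, mitosis genes of the rule and clone identifiers), all endoderm and Nodal list genes, and in other lists the 4 largest ratios at 20 CPM or more. Thinning used 5000 UMIs per barcode. Doublets were not called. Some genes that the rule names are not reported here.

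After rounding, the bulk expected counts went through edgeR 4.0.16 (R 4.3.3): low genes dropped by filterByExpr, TMM scaling, the two-sided quasi-likelihood test and Benjamini-Hochberg adjustment at 0.05. The fit for time used 16 libraries (the 24 h groups AA+CHIR, BRD+CHIR, JNJ+CHIR and CHIR and all 72 h groups, sharing 1 estimate of spread, 8 residual degrees of freedom); that for compounds used 8 (4). A standard error is the log2 change over the root of F. Bulk CPM rests on TMM scaling, single-cell CPM on summed UMIs. The bulk procedure was tested on simulated counts with a common spread for all genes. The fit for time recovered 3% of 2-fold and 52% of 4-fold rises, with 6.78% of its calls false. The fit for compounds recovered 77% and 100%, with 4.84% false. A gene that did not pass in the fit for time may thus still have changed. The alternatives were no depth matching, other thresholds, comparison classes and filters, libraries left out, a replicate block, RLE scaling and DESeq2 1.42.0.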

Additional observations from a re-analysis of the deposited data

Results flagged for a closer look

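mNeonGreen was detected outside the 72 h endoderm library, with 11 UMIs in 8 of 6244 barcodes at 36 h (0.132 CPM), a library the comparison does not use. This is above the limit that a count of 0 allows, and the mesoderm library had 0. SOX17 had 0 UMIs at 36 h among all barcodes, and whether these 11 UMIs were made by the barcoded cells was not tested.

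In the endoderm library itself, 330 of the 3670 barcodes under 5000 UMIs, which the rule leaves out, held 3 or more mNeonGreen UMIs. They had a median of 1839.5 UMIs, 181 CPM of SOX17 and 3675 CPM of CER1, close to the 182 CPM and 3218 CPM of the matched members. These barcodes were not filtered on mitosis UMIs.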

How the results depend on the processing

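Main counts of genes past 1.5-fold were 91 higher and 37 lower in mNeonGreen-high barcodes. With barcodes of 1 or 2 mNeonGreen UMIs as the comparison they were 3 and 1, with a minimum of 20 CPM 282 and 130, with a looser fold 274 and 129, and with a ratio of 2 22 and 15. Of the 30 leading genes, 21 were past 1.5-fold among barcodes with SOX17 UMIs only and 29 with 0 mitosis UMIs. Reversed were MT1X with 1 or 2 mNeonGreen UMIs as the comparison (log2 ratio 0.10) and TAGLN among barcodes with SOX17 UMIs only (0.031). Other depth, mitochondrial, reporter and doublet settings gave 81 to 119 higher and 30 to 52 lower. Both alternatives chosen after seeing the data kept the direction of all 30 genes: barcodes with 10 or more CER1 UMIs gave 72 and 29, and leaving out barcodes with many metallothionein UMIs 76 and 32. The 30 genes are the extremes of the main comparison, and these alternatives draw on the same barcodes. Their kept direction is therefore no separate support.

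In bulk, leaving out 1 library at a time gave 2124 to 2449 genes higher and 2461 to 2735 lower at 72 h against 24 h, and 885 to 1677 and 1051 to 2115 for compounds against AA, where the lowest values (885 and 945 higher, 1051 and 1199 lower) each leave out an AA library. With a replicate block the counts were 2868 and 3168, and 1512 and 1911, and 3 calls of single genes were lost. Samples sharing a number did not deviate together (correlations of −0.195 to 0.185 over 28 pairs of groups), so they were not treated as pairs. Over all alternatives and named bulk genes, 95 calls were lost, 31 gained and 0 reversed. Both single-cell classes came from 1 library, so variation between libraries was not measured, and differences below counting error were not detectable.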

Other observations

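Signalling genes outside the Nodal pathway differed gene by gene. In the BMP list the ligand BMP2 had 54.2 CPM in members and 27.7 CPM in mNeonGreen-zero barcodes (ratio 1.96, 1.49 to 2.58), whereas the BMP target genes ID1 and ID2 had 20.7 and 39.0 CPM (0.53) and 16.8 and 41.1 CPM (0.41), and ID3 had 191 and 204 CPM (0.93). Of 4 BMP genes at 20 CPM or more, 1 was past 1.5-fold higher and 2 lower, with a median log2 ratio of −0.51. In the FGF list SPRY4 and SPRED1, which restrain ERK signalling, had 52.9 and 33.6 CPM (1.58) and 21.0 and 12.3 CPM (1.71), 2 of 10 genes past 1.5-fold with 0 lower and a median of 0.13. In the Wnt list CYP26A1 was past 1.5-fold higher and CCND1 lower (12.5 and 24.0 CPM, 0.52), of 4 genes with a median of 0.01. The 1 trophoblast gene at 20 CPM or more, TFAP2C, had 7.89 and 25.3 CPM (0.31). The 1 mesoderm gene, PDGFRA, had 13.2 and 24.7 CPM (0.53). TFAP2C and PDGFRA passed the minimum only through the mNeonGreen-zero class, where they were higher, so neither stands for its list. ID2 and CCND1 likewise passed only through that class, and SPRED1 only through the members. The minimum thus favoured their direction in the BMP, Wnt and FGF counts. Of 4 neural genes 1 was lower and 0 higher, with a median of −0.11.

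Few cell cycle genes were past 1.5-fold, and the rule limited mitosis genes in both classes. Of 7 S phase genes, MCM7 was past 1.5-fold lower (21.4 and 32.2 CPM) and 0 were higher, with a median log2 ratio of −0.41. Of 8 other mitosis genes, CENPF was past 1.5-fold lower (22.4 and 34.2 CPM), with a median of −0.15. Among 5 p53 targets and cell cycle brakes, GADD45B was lower (35.8 and 62.7 CPM, 0.57), and 0 of 5 heat shock and immediate early genes was past 1.5-fold, with HSP90AA1 at 561 and 746 CPM (0.75).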
